A study of Mus musculus with 3 samples.

Results

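The comparison described here set BECs treated with glycochenodeoxycholic acid (GCDC) against untreated control BECs. BECs are biliary epithelial cells (cholangiocytes), the cells that line the bile ducts, and GCDC is a glycine-conjugated hydrophobic bile acid of the kind that accumulates in cholestasis. The cells were mouse intrahepatic BECs of BALB/c mice, females aged 8 weeks. The culture medium, DMEM/F-12, held 10% Nu-serum, antibiotics, forskolin, insulin and EGF. GCDC-treated BECs received 200 μM GCDC for 4 to 7 days, and control BECs were kept without either treatment. This range is that of the labels and methods, while the paper's account of the array results gives 7 days for both treatments. Serum depletion for 4 to 7 days, the other treatment of the study, is given beside GCDC only where it adds to a result. Both treatments were used by the study to induce cellular senescence, a lasting arrest of proliferation. Each condition was measured on 1 one-colour oligonucleotide array of RNA pooled from 2 independent experiments. With these arrays no test was possible, no difference has a replicate check, and there is no estimate of the error of a ratio. The paper reports that a second array experiment on other samples gave its major up-regulated genes again, *Ifit3* among them. It also reports higher *Ifit3* mRNA and protein in GCDC-treated BECs.

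Members of the comparison were the gene probes with a value on both arrays in the deposited table. Of 23473 gene probes, 20087 (85.6%) had one, and they stood for 16779 of 19321 gene symbols. The values are fluorescence intensities above the blank spots, scaled so that the median of each array is 25, and they are called levels here. A probe was left empty where its signal lay no more than 2 SD above the mean of the blanks. Changes are given as the ratio of the GCDC level to the control level, or its log2, and the words rose and fell are used only for ratios past 2-fold, the study's own threshold. A level compares a probe with itself across arrays and not with another probe.

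The signal was dimmer on the GCDC array than on the control array. The median valid signal was 25.9 above the blanks on the GCDC array and 40.6 on the control array, and the factors that brought the medians to 25 were 0.964 for GCDC and 0.615 for control. This scaling added 0.65 to the log2 ratio of every probe. Valid gene probes numbered 20641 (87.9%) on the GCDC array and 20947 (89.2%) on the control array. A limit of 2 SD is permissive, since the median of the first set of negative control spots lay 3.0 SD above the blanks on the GCDC array and 3.8 SD on the control array. The medians of the other sets lay below the limit, at 0.35 to 0.75 SD on the GCDC array and 0.68 to 1.5 SD on the control array. Several defining markers of BECs gave strong signals, with *Krt7* at 24866 in GCDC-treated BECs and 14723 in control BECs and *Epcam* at 2782 in GCDC and 1760.2 in control. *Sox9*, another of these markers, was only at 23.1 in GCDC and 16.7 in control. The hepatocyte marker *Alb* was near the background at 3.4 in GCDC and 3.66 in control, as was the leukocyte marker *Ptprc* at 2.5 in GCDC and 2.62 in control, and the endothelial marker *Pecam1* was empty on the GCDC array and at 1.16 in control. Other markers of these cell types stood clear of the background. The hepatocyte markers *Hnf4a* and *Fgb* were at 108.5 and 83.4 in GCDC and at 134.9 and 55.5 in control. Endothelial *Kdr* was at 50.8 in GCDC and 20.4 in control, and macrophage *Cd68* at 63.5 in GCDC and 42.5 in control. Summed levels over the compared markers were 56878 in GCDC and 31056 in control for 5 cholangiocyte markers, and 269.6 in GCDC and 253.2 in control for 7 hepatocyte markers. They were 2924 in GCDC and 1566 in control for 7 macrophage markers, nearly all of it *Cd14*, 86.3 in GCDC and 65.5 in control for 7 mesenchymal markers, 92.6 in GCDC and 42.4 in control for 5 endothelial markers, and 19.9 in GCDC and 13.9 in control for 3 lymphocyte markers. In pooled RNA, fewer cells of a type and less RNA per cell cannot be told apart.

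In GCDC-treated BECs 2596 probes (12.9% of those compared) were past 2-fold upward and 1707 (8.5%) past it downward, while 15784 stayed within 2-fold. Rises thus made up 60.3% of the changes, but 43.5% when the arrays were set to equal 75th percentiles, 42.9% after quantile normalization, 36.6% after cyclic loess, 41.2% after background fitting with quantile normalization, 66.4% with the median taken over the probes valid on both arrays, and 12.2% with no scaling. The median log2 ratio was 0.24 over all compared probes, and likewise over the 16779 genes they represent, of which 13.5% rose and 8.21% fell. The counts of the gene lists below are to be read beside these shares. Large changes ran more often downward. Past 4-fold there were 255 higher and 418 lower probes, and past 8-fold 34 higher and 75 lower ones. The threshold cut through a dense region, with 481 probes at log2 ratios of 1.0 to 1.1 and 582 at 0.9 to 1.0. Among 1018 genes with several compared probes, 18 had one probe past 2-fold in each direction, and the median range between probes of a gene was 0.66 on the log2 scale.

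**Figure D1:**
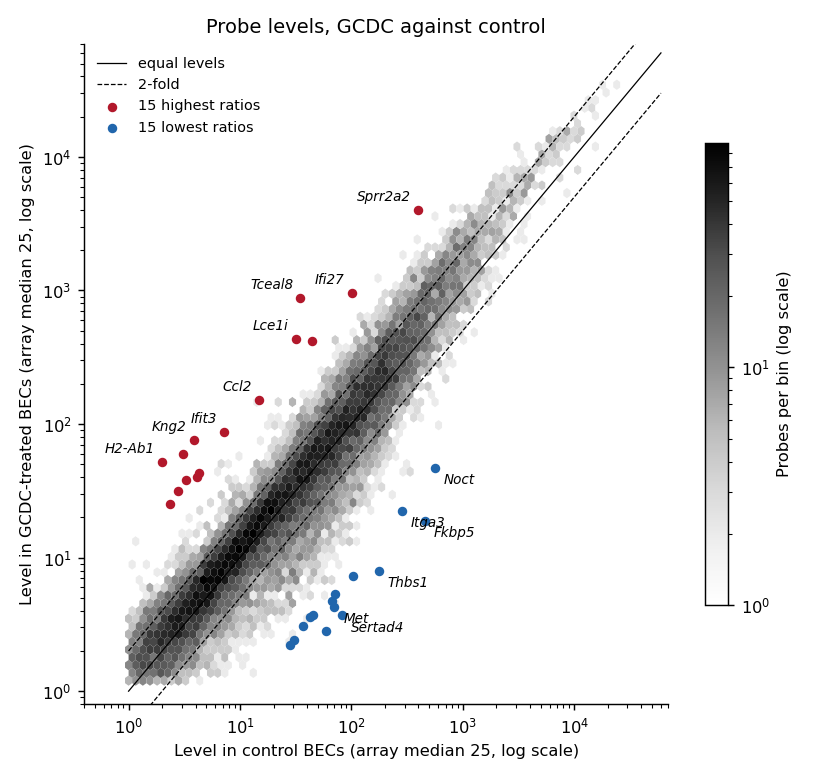
Level of each gene probe on the GCDC array (vertical axis) against the control array (horizontal axis), both on a log scale with the array median at 25. Shading is the number of probes per bin, the solid line marks equal levels, the dashed lines mark 2-fold, and the coloured points are the 15 highest and 15 lowest ratios among named probes with a level of at least 25 on 1 of the arrays, from *H2-Ab1* at 52.2 in GCDC and 2.01 in control to *Fkbp5* at 18.9 in GCDC and 456 in control.

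The highest ratio belonged to *H2-Ab1*, a chain of the MHC class II molecule that presents peptides to T cells, with a level of 52.2 in GCDC-treated BECs and 2.01 in control BECs (26-fold). The control value lay 4.02 SD above the blanks, near the first set of negative control spots, and the log2 ratio of 4.70 was 1.13 after background fitting with quantile normalization. With a limit of 5 SD no ratio could be given. Its partner chain *H2-Aa* did not move with it and was at 19.6 in GCDC and 22.3 in control, and *Cd74*, the invariant chain, was at 3.9 in GCDC and 4.42 in control. *Tceal8*, a member of the transcription elongation factor A-like family, was at 879 in GCDC and 34.8 in control (25.3-fold). Genes of the cornified envelope, the crosslinked protein shell of stratified epithelia, were also among the 15 highest. *Sprr2a2* was at 4032 in GCDC and 397 in control (10.2-fold), *Lce1i* was at 430.5 in GCDC and 31.8 in control (13.5-fold), and *Lce1h* was at 418 in GCDC and 44.4 in control (9.42-fold). The *Sprr2* and *Lce1* genes are families of near-identical copies, so that signal between their probes may be shared. A list of keratins and cornified envelope genes did not rise as a whole, with 6 rises and 4 falls among 36 compared genes. Its median log2 ratio was 0.10, beside 0.24 for all genes, and members ran from −1.84 (*Lor*) to 3.15 (*Sprr2b*). The balance turned under all alternative scalings except the median over probes valid on both arrays. *Kng2*, a kininogen, was at 76.3 in GCDC and 3.86 in control, where the control value was close to the background.

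The lowest ratio was that of *Fkbp5*, a co-chaperone of the glucocorticoid receptor and one of its best known targets, with a level of 18.9 in GCDC-treated BECs and 456 in control BECs. It fell by 4.59 on the log2 scale. The receptor itself, *Nr3c1*, was at 7 in GCDC and 42.9 in control. Other members of a glucocorticoid response list went the opposite way or changed little, among them *Mt2* (log2 ratio 2.67) and *Sgk1* (−0.42). *Thbs1*, a matricellular protein that activates latent TGF-beta, was at 8 in GCDC and 176 in control. *Met*, the receptor of hepatocyte growth factor, was at 4.3 in GCDC and 70.2 in control, and *Itga3*, an integrin subunit that binds laminin, was at 22.4 in GCDC and 282 in control. The catalytic subunit of RNA polymerase I, *Polr1a*, was at 2.8 in GCDC and 59 in control. Its GCDC value lay 4.75 SD above the blanks, and with a limit of 5 SD no ratio could be given. After background fitting with quantile normalization its log2 ratio of −4.40 was −1.23, and that of *Met* went from −4.03 to −1.35. *Serpinb11*, a clade B serpin, stood apart from these genes in that it was low in GCDC (5.3) but at 51.6 in serum depletion and 70.7 in control.

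Another 554 probes were valid on the GCDC array alone, and 860 on the control array alone. For these only a bound can be given, taken against the lowest valid level of the other array, 1 on control and 1.2 on GCDC. By this bound 196 probes were at least 2-fold higher in GCDC and 169 were at least 2-fold lower. *Ptchd1*, a patched-domain protein, had a level of 31.6 in GCDC, at least 31.6-fold higher than control. The homeobox gene *Hoxa9* was at 24.1 and thus at least 24.1-fold higher, and the monocyte chemokine *Ccl7* was at 13.5 and at least 13.5-fold higher. In the other direction *Tbc1d9*, a Rab GTPase-activating protein, was at 47.8 in control and at least 39.8-fold lower in GCDC. *Atp7b*, the copper transporter that delivers copper into bile, was at 34.97 in control and at least 29.1-fold lower in GCDC, and the interleukin-1 receptor *Il1r1* was at 22.03 in control and at least 18.4-fold lower. The remaining 1972 gene probes were valid on neither array.

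Cholangiocytes meet bile acids through receptors (the nuclear receptor FXR and the membrane receptors TGR5 and S1PR2), take them up and export them through transporters, and shield themselves with a bicarbonate-rich secretion. Of 9 compared bile acid receptors and their partners 0 rose and 0 fell, beside 13.5% and 8.21% of all genes, and the median log2 ratio was −0.04 beside 0.24 for all genes. *Nr1h4* (FXR) was at 25 in GCDC-treated BECs and 27.4 in control BECs. *Gpbar1* (TGR5) was at 51.3 in GCDC and 52.6 in control. *S1pr2*, which binds conjugated bile acids, was at 135 in GCDC and 95.95 in control, a log2 ratio of 0.50 that lies within 2-fold. *Nr0b2* (SHP), the classical FXR target, was low on both arrays, at 5.9 in GCDC and 8.05 in control, and *Vdr*, the vitamin D receptor, which also binds bile acids, was at 7.2 in GCDC and 6.92 in control.

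Among 28 compared genes of bile acid transport and synthesis 2 rose and 2 fell (7.14% each, beside 13.5% and 8.21% of all genes), and the median log2 ratio was 0.08. The drug exporter *Abcb1b* (P-glycoprotein) was at 11.2 in GCDC and 47.6 in control. The basolateral bile acid exporter *Abcc3* was at 85.5 in GCDC and 178 in control, just past 2-fold, a fall that was lost with the median over probes valid on both arrays (log2 ratio −0.98) and after background fitting with quantile normalization (−0.95). A second basolateral exporter, *Abcc4*, lay just inside the threshold at 28.9 in GCDC and 56.1 in control. The genes that rose were *Slc10a1* (NTCP, the hepatocyte uptake transporter), at 16.2 in GCDC and 6.93 in control, and *Cyp39a1*, an oxysterol hydroxylase of bile acid synthesis, at 236 in GCDC and 117 in control. The rise of *Slc10a1* was lost with no scaling (log2 ratio 0.58) and after background fitting with quantile normalization (0.26). That of *Cyp39a1* was lost under all alternative scalings (0.36 to 0.82) but the median over probes valid on both arrays. *Slc10a2* (ASBT), the apical transporter through which cholangiocytes take up conjugated bile acids, was at 28.1 in GCDC and 43.1 in control (log2 ratio −0.62).

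Within the list of biliary ion and water secretion 4 of 25 compared genes fell and 1 rose (16% and 4%), and under the alternative scalings 2 to 8 fell and 0 or 1 rose. *Aqp1*, the water channel of cholangiocytes, had the largest change of the list, with a level of 86.4 in GCDC-treated BECs, 229 in serum-depleted BECs and 776 in control BECs. The calcium-activated potassium channel *Kcnn4* was at 17.1 in GCDC and 65.05 in control. *Pkhd1*, the fibrocystin gene of biliary cilia, was at 11.8 in GCDC and 28.3 in control, and *Ano1*, a calcium-activated chloride channel, was at 123 in GCDC and 277 in control. The only rise was that of the sodium-proton exchanger *Slc9a3*, at 26 in GCDC and 12.8 in control (2.03-fold), which stayed past 2-fold in 2 of 6 alternative scalings. The parts of the bicarbonate secretion through which secretin acts stayed within 2-fold. The secretin receptor *Sctr* was at 64 in GCDC and 37.4 in control, the chloride channel *Cftr* at 28.6 in GCDC and 25.6 in control, and the chloride-bicarbonate exchanger *Slc4a2* (AE2) at 114 in GCDC and 196 in control.

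**Figure D2:**
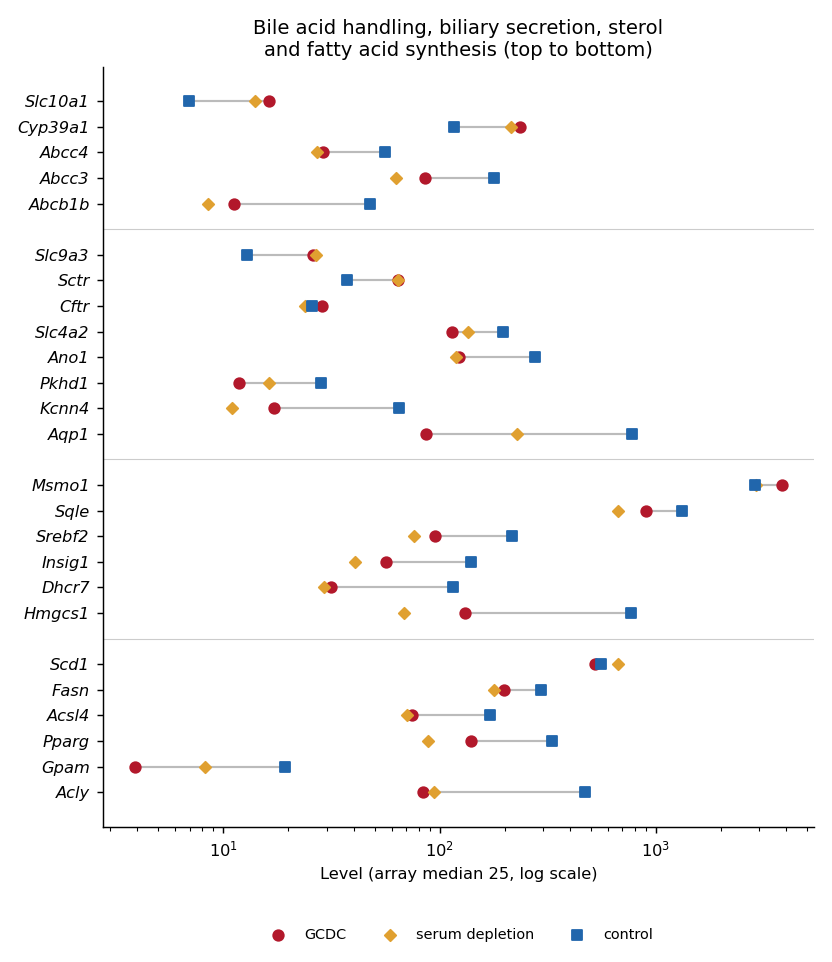
Levels of 25 genes on the GCDC (circle), serum depletion (diamond) and control (square) arrays, on a log scale with the array median at 25. From top to bottom the blocks are bile acid handling, biliary secretion, cholesterol synthesis, and fatty acid synthesis, and grey lines join GCDC to control, the widest of them for *Aqp1* (86.4 in GCDC and 776 in control).

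Hydrophobic bile acids are known to stress the endoplasmic reticulum (ER), where unfolded proteins raise chaperones through ATF6 and XBP1, and to engage the integrated stress response, in which phosphorylation of eIF2α raises the translation of ATF4. Of 42 compared genes of the integrated stress response, 10 rose and 5 fell in GCDC (23.8% and 11.9%, beside 13.5% and 8.21% of all genes). This balance turned only with no scaling. The median log2 ratio was 0.35, but it was negative with no scaling, after quantile normalization without background fitting and after cyclic loess. The targets that rose included both regulators and enzymes. *Nupr1*, a stress-induced chromatin protein, was at 8648 in GCDC-treated BECs and 939 in control BECs (9.21-fold). *Chac1*, which degrades glutathione, was at 1961 in GCDC and 476 in control (4.12-fold), and *Ddit3*, the pro-apoptotic factor CHOP, was at 1267 in GCDC and 339.7 in control (3.73-fold). *Cth*, the enzyme that makes cysteine from cystathionine, was at 339.7 in GCDC and 78.9 in control (4.31-fold). *Psph*, the last enzyme of serine synthesis, rose 3.32-fold, and the amino acid transporter subunit *Slc3a2* rose 3.25-fold. *Atf4* itself, which is controlled mainly at translation, was at 3466 in GCDC and 2349 in control, within 2-fold, as were *Atf3* (197 in GCDC and 150.5 in control), *Trib3* (74.2 in GCDC and 46.02 in control) and the asparagine synthetase *Asns* (1575 in GCDC and 1264 in control). The falls were led by a kinase and a transporter. *Eif2ak1*, the heme-regulated eIF2α kinase, was at 6.7 in GCDC and 63.95 in control, and the amino acid transporter *Slc38a2*, itself an ATF4 target, was at 94 in GCDC and 537 in control.

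The arrays of GCDC and serum depletion differed from each other in this list. Set directly against serum depletion, 16 of the 41 genes measured on all arrays were more than 2-fold higher in GCDC and 0 were lower, while over all genes 2.87% were higher and 2.02% lower. Without scaling these were 11 and 0, and with equal 75th percentiles 15 and 0. Most of the 16 were enzymes, many of them of amino acid and folate metabolism, and *Atf3* was the only transcription factor among them. *Cth* was at 339.7 in GCDC, 45.4 in serum depletion and 78.9 in control. *Aldh1l2*, a mitochondrial folate enzyme, was at 26.8 in GCDC, 3.5 in serum depletion and 14.9 in control. *Trib3*, a pseudokinase induced by ATF4 and CHOP, was at 74.2 in GCDC, 22.6 in serum depletion and 46.02 in control. *Psph* was at 1285 in GCDC, 533 in serum depletion and 387 in control. Of the 16, only *Cth*, *Chac1*, *Psph* and *Pck2* were more than 2-fold above control in GCDC. *Aldh18a1*, *Shmt2* and *Slc1a4* were below control in GCDC, with *Aldh18a1* at 101.8 in GCDC, 43.3 in serum depletion and 261 in control. The median log2 ratio of the list to control was 0.35 for GCDC and −0.56 for serum depletion, and these ratios share the control array.

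Among 47 compared ER chaperones and genes of the unfolded protein response 15 rose and 4 fell (median log2 ratio 0.40), but falls outnumbered rises with no scaling, after quantile normalization with or without background fitting, and after cyclic loess. *Sdf2l1*, a cofactor of ER chaperones, was at 616 in GCDC-treated BECs and 126 in control BECs (4.9-fold), and the ER stress-inducible factor *Manf* was at 3069 in GCDC and 791 in control (3.88-fold). *Selenok*, an ER membrane selenoprotein, was at 2602 in GCDC and 772 in control (3.37-fold). *Creld2*, another ER stress-inducible protein, was at 324 in GCDC and 159.7 in control (2.03-fold), the smallest rise of the list. Its rise held in only 1 of 6 alternative scalings. The master chaperone *Hspa5* (BiP) was at 4180.1 in GCDC and 2657 in control, which is within 2-fold, and so was *Xbp1* at 607 in GCDC and 502 in control. Small subunits of the ER translocon rose (*Sec61b* 2.51-fold and *Sec61g* 2.5-fold), while its channel subunit *Sec61a1* was at 246 in GCDC and 622 in control. The largest falls were in *Sel1l*, the scaffold of the ER-associated degradation ligase, at 9.3 in GCDC and 92.9 in control, and in the lectin chaperone *Calr*, at 176 in GCDC and 642 in control.

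**Figure D3:**
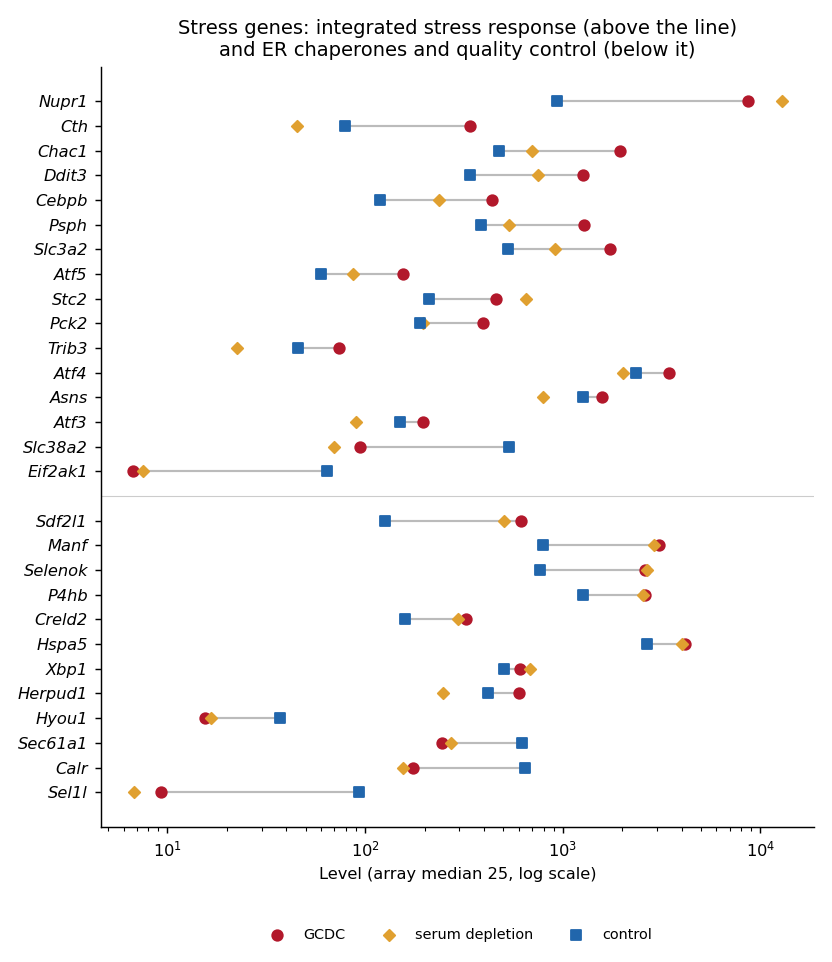
Levels of 16 genes of the integrated stress response (above the line) and 12 genes of the ER (below it) on the GCDC (circle), serum depletion (diamond) and control (square) arrays, on a log scale with the array median at 25. Grey lines join GCDC to control, and *Cth*, *Trib3*, *Atf3* and *Herpud1* lie above control in GCDC and below it in serum depletion.

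Known response elements were looked up in the promoters of these genes, as RefSeq sequence of build GRCm38.p6 from 250 bases before to 50 bases after each start, on both strands. A match is a description of the letters only. The ER stress element (ERSE, CCAAT and CCACG with 9 bases between them) was found in 10 of the 40 ER genes with a promoter sequence and in 0.159% of the 13170 compared genes with one. Of the 10 genes *Creld2* and *Derl3* rose, *Calr* fell, and 7 stayed within 2-fold, *Hspa5* among them. The C/EBP-ATF composite element TGATGNAAT was found in *Nupr1* and *Fgf21* of the 35 genes of the integrated stress response with a sequence and in 0.668% of all such genes. Over all genes, neither element was more common in promoters of genes that rose (0.111% and 0.498%) than of all genes. The sequences of *Creld2* and *Calr* are shown because both hold the same element and were past 2-fold in opposite directions, *Creld2* only just. That of *Nupr1* is shown because it had the largest rise of its list. Each is the 250 bases before the start, with the match in capitals, at chr15:88819396-88819645, plus strand for *Creld2*, chr8:84846932-84847181, minus strand for *Calr* and chr7:126625471-126625720, minus strand for *Nupr1*.
*Creld2*: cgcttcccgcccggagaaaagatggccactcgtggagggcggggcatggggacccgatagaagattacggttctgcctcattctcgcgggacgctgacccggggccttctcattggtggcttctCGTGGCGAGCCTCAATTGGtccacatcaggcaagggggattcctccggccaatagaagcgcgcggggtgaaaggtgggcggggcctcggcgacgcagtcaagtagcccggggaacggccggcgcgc
*Calr*: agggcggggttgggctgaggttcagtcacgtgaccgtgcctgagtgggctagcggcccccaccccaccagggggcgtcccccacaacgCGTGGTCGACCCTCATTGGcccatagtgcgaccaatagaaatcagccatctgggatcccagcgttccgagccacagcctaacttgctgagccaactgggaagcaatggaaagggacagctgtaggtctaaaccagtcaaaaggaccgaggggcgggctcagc
*Nupr1*: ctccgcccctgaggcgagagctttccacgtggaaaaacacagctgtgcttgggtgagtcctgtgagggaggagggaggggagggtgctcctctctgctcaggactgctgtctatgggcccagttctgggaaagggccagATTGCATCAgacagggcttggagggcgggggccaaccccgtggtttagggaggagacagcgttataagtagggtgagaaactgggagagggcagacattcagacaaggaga
The element starts 126 bases before the start in *Creld2*, 162 in *Calr* and 111 in *Nupr1*.

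Cells make cholesterol and fatty acids under the transcription factors SREBP2 and SREBP1, and bile acids are the end product of cholesterol. In the list of cholesterol synthesis and uptake 0 of 25 compared genes rose and 4 fell (median log2 ratio −0.03), and under the alternative scalings 0 rose and 4 to 10 fell. *Hmgcs1*, which makes HMG-CoA, was at 131 in GCDC-treated BECs, 68.3 in serum-depleted BECs and 765 in control BECs. The last enzyme of the pathway, *Dhcr7*, was at 31.5 in GCDC and 115 in control. Falls were also seen in *Srebf2*, the gene of SREBP2, at 95.3 in GCDC and 215 in control, and in *Insig1*, which holds SREBP in the ER, at 56.2 in GCDC and 140.2 in control. The pathway did not move as a whole, as *Sqle*, the squalene epoxidase, was at 900 in GCDC and 1322 in control and *Msmo1*, a sterol demethylase, at 3827 in GCDC and 2854 in control. A sterol regulatory element of the letters TCACNCCAC was found in the promoter of 1 of 20 genes of this list, *Hmgcs1*, and in 1.4% of all genes with a sequence. It starts 137 bases before the start and is in capitals in this stretch of GRCm38.p6 (chr13:119690101-119690350, plus strand), shown because *Hmgcs1* had the largest fall of the list.
*Hmgcs1*: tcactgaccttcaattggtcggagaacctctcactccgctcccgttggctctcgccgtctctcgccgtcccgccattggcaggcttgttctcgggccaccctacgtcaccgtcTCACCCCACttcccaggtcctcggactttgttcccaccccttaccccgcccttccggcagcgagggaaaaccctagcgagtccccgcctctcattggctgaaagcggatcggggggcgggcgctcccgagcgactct

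Fatty acid synthesis had 4 falls and 1 rise among 24 compared genes. *Acly*, the ATP citrate lyase that supplies cytosolic acetyl-CoA, was at 83.6 in GCDC-treated BECs and 467 in control BECs. *Gpam*, the first acyltransferase of triglyceride synthesis, was at 3.9 in GCDC and 19.3 in control, and the adipogenic nuclear receptor *Pparg* was at 139 in GCDC and 329.9 in control. The synthase *Fasn* and the desaturase *Scd1* stayed within 2-fold, with *Fasn* at 197 in GCDC and 293 in control and *Scd1* at 520.5 in GCDC and 558 in control. Fatty acid oxidation and the peroxisome had 8 rises and 0 falls among 35 genes, a balance that turned only with no scaling. *Pex11a*, which drives peroxisome division, was at 160 in GCDC and 49.6 in control, and *Phyh*, which starts the oxidation of phytanic acid, was at 190.4 in GCDC and 62.4 in control. The carnitine transferase *Cpt1a*, the gate of mitochondrial oxidation, was at 177 in GCDC and 284 in control.

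**Figure D4:**
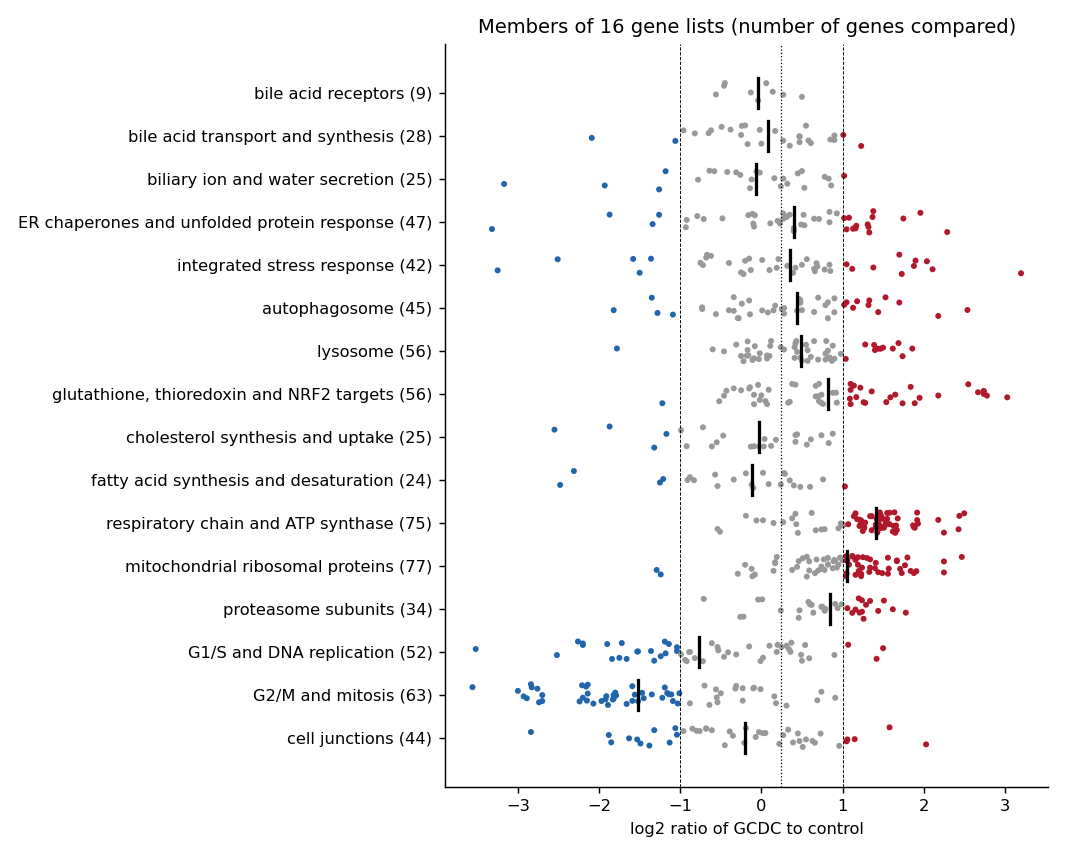
log2 ratio of GCDC to control (horizontal axis) for the members of 16 gene lists, with the number of genes compared in brackets. Each point is a gene, red where it rose and blue where it fell past 2-fold (dashed lines), black bars are list medians, and the dotted line is the median of all genes at 0.24, with the list medians running between −1.52 for G2/M and mitosis and 1.41 for the respiratory chain.

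Bile acids also bring oxidative stress, which cells meet with glutathione, thioredoxin and the targets of NRF2. Of 56 compared genes of this kind 25 rose and 1 fell (44.6% and 1.79%, beside 13.5% and 8.21% of all genes), with a median log2 ratio of 0.82. Under the alternative scalings 12 to 26 rose and 1 to 4 fell. The largest rises of the list were in glutathione transferases. *Gstm5* was at 954 in GCDC-treated BECs and 117 in control BECs (8.15-fold), *Gstm7* was at 76.2 in GCDC and 11.1 in control (6.87-fold), and the microsomal transferase *Mgst1* was at 2515 in GCDC and 376 in control (6.7-fold). The *Gstm* genes are close copies, so their probes may share signal. *Gsta2*, an alpha class transferase, was at 83.8 in GCDC, 22.4 in serum depletion and 25.2 in control. Antioxidant enzymes and metal-binding proteins were higher too. The cytosolic superoxide dismutase *Sod1* was at 406 in GCDC and 69.2 in control (5.86-fold), the biliverdin reductase *Blvrb* at 169.9 in GCDC and 25.4 in control, and the metallothionein *Mt2* at 2517 in GCDC and 394 in control. The best known NRF2 targets did not follow as a block. *Gclm*, the modifier subunit of glutathione synthesis, rose 2.42-fold, whereas *Nqo1* was at 3.7 in GCDC and 5.32 in control, *Txnrd1* at 1309 in GCDC and 1345 in control, and *Hmox1* at 707 in GCDC and 444 in control, all within 2-fold. The gene of NRF2 itself, *Nfe2l2*, was at 550.1 in GCDC and 551 in control. The core of the antioxidant response element, TGACNNNGC, was found in the promoters of 12 of 50 genes of this list (24%) and of 15.8% of all genes with a sequence. *Mgst1* is shown because, outside the *Gstm* family, it had the largest rise of the list among genes with a match, which starts 56 bases before the start (chr6:138140277-138140526, plus strand, GRCm38.p6).
*Mgst1*: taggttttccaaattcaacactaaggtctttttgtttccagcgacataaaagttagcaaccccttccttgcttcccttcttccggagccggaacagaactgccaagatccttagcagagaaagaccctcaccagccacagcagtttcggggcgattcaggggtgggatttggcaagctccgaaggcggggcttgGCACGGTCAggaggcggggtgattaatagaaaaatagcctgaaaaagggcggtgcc

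Autophagy genes rose in part. In the list of autophagosome genes 11 of 45 rose and 4 fell (24.4% and 8.89%, median log2 ratio 0.44), a balance that turned only with no scaling. The largest rises were in genes that coat the autophagosome membrane, *Map1lc3a* (LC3A) at 1798 in GCDC-treated BECs and 309 in control BECs and *Gabarapl1* at 852 in GCDC and 189 in control. Of the same kind, *Gabarap* rose 2.52-fold, while *Map1lc3b* (LC3B) was at 931 in GCDC and 498 in control, within 2-fold. *Bnip3*, a receptor of mitophagy, was at 686 in GCDC, 274 in serum depletion and 275 in control. The cargo receptors *Calcoco1* and *Nbr1* had log2 ratios of −1.82 and −1.09, and *Sqstm1* (p62) was at 1299 in GCDC and 932 in control. Of 56 lysosomal genes 11 rose and 1 fell, and under the alternative scalings 2 to 12 rose and 0 to 3 fell. *Glb1*, the lysosomal beta-galactosidase whose activity serves as a sign of senescence, was at 279.8 in GCDC and 83.8 in control (3.34-fold). The protease *Ctsd* was at 12682 in GCDC and 4138 in control (3.06-fold), and the proton pump subunit *Atp6v1g1* at 2584 in GCDC and 712 in control.

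Many genes of proliferation fell. Of 63 compared genes of G2/M and mitosis 43 fell and 0 rose, with a median log2 ratio of −1.52, and under the alternative scalings 19 to 50 fell and 0 rose. *Nuf2*, a kinetochore protein, was at 3.6 in GCDC-treated BECs and 42.4 in control BECs. *Top2a*, which untangles chromosomes, was at 19.9 in GCDC and 159 in control, and the proliferation marker *Mki67* at 24.6 in GCDC and 87.1 in control. Of 52 genes of G1/S and DNA replication 20 fell and 3 rose (median log2 ratio −0.77), with 10 to 32 falls and 0 to 3 rises under the alternative scalings. The replicative helicase shows how these genes varied. *Mcm5* was at 13 in GCDC and 149 in control, *Mcm6* at 42.8 in GCDC and 246 in control, and *Mcm7* at 194 in GCDC and 342 in control, which is within 2-fold. The 3 rises were in *Ccne1*, the cyclin that drives entry into S phase, at 75.3 in GCDC and 26.6 in control, in *Rnaseh2a*, a subunit of ribonuclease H2, and in *Gins4*, a part of the replicative helicase. *Lmnb1*, a nuclear lamin that is lost in many senescent cells, was at 65.2 in GCDC and 149 in control.

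Of 7 CDK inhibitors 3 rose and 0 fell. *Cdkn2b* (p15), an inhibitor of CDK4 and CDK6, was at 1668 in GCDC-treated BECs and 588 in control BECs, a rise that was lost with no scaling, quantile normalization, cyclic loess and background fitting with quantile normalization (log2 ratios of 0.85, 0.80, 0.82 and 0.75). The other rises were just past 2-fold, in *Cdkn1b* (p27) at 70.9 in GCDC and 35.1 in control and in *Cdkn2d* (p19INK4d) at 100 in GCDC and 49.5 in control, and *Cdkn1b* stayed past it in 2 and *Cdkn2d* in 1 of 6 alternative scalings. *Cdkn1a* (p21) was at 326 in GCDC and 380.5 in control, and *Cdkn2a*, which encodes p16 and p19ARF, at 28.6 in GCDC and 34.7 in control. *Gadd45a*, a DNA damage and stress gene, was at 1274 in GCDC, 544 in serum depletion and 267 in control. The D-type cyclins *Ccnd1* and *Ccnd2* were higher rather than lower in GCDC, at 2762 in GCDC and 1123 in control for *Ccnd1* and 2676 in GCDC and 1044 in control for *Ccnd2*. Their log2 ratios were 1.30 and 1.36, of which the scaling added 0.65, so both lie within 2-fold with no scaling. *Ccnd3* was at 185 in GCDC and 158 in control, within 2-fold. The p53 inhibitor *Mdm4* was at 3.7 in GCDC and 18 in control.

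Chromatin and the machinery of RNA and protein synthesis gave mixed counts. Replication-dependent histones, which are normally made in S phase, rose in 24 of 46 compared genes and fell in 1 (median log2 ratio 1.14), with *H2bc12* at 1264 in GCDC and 180.3 in control and *H4c8* at 268 in GCDC and 39.7 in control. These genes are near-identical copies, so the values of single members are uncertain. Ribosome biogenesis and RNA polymerase I had 12 falls and 4 rises among 74 genes, with 9 to 29 falls and 0 to 4 rises under the alternative scalings. *Nop2*, a methyltransferase of ribosomal RNA, was at 49.2 in GCDC and 216 in control. Translation factors had 10 falls and 5 rises among 60 (16.7% and 8.33%), and the falls included *Eif2s3x*, the gamma subunit of eIF2, at 53.7 in GCDC and 418 in control. The cytosolic ribosomal proteins themselves had 14 rises and 0 falls among 66, although their median was below that of all genes after quantile normalization and cyclic loess. RNA polymerase II, its TAFs and Mediator had 17 rises and 6 falls among 73, a balance that turned with no scaling, quantile normalization and cyclic loess. Small Mediator subunits rose, as *Med31* at 945 in GCDC and 209.6 in control, and the large kinase module subunit *Med12* fell, at 3.3 in GCDC and 15.1 in control. *Med12* was dim on both arrays, and its log2 ratio of −2.20 was −0.36 after background fitting with quantile normalization. *Bmi1*, a Polycomb protein that represses *Cdkn2a*, was at 14 in GCDC and 59.2 in control.

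Most subunits of the respiratory chain rose. Of 75 compared subunits of the respiratory chain and ATP synthase 57 rose and 0 fell (median log2 ratio 1.41), and under the alternative scalings 12 to 60 rose and 0 to 2 fell. *Ndufa7*, a subunit of complex I, was at 5440.2 in GCDC-treated BECs and 959 in control BECs, and *Atp5g1*, of the rotor of the ATP synthase, at 876 in GCDC and 162 in control. The larger subunits *Ndufs1* and *Atp5a1* did not rise, with log2 ratios of −0.51 and 0.02. Mitochondrial ribosomal proteins had 41 rises and 2 falls among 77 genes (median log2 ratio 1.05), and proteasome subunits 14 rises and 0 falls among 34 (median log2 ratio 0.85). Under the alternative scalings mitochondrial ribosomal proteins had 12 to 44 rises and 0 to 2 falls, and proteasome subunits 1 to 16 rises and 0 or 1 fall. The proteasome median lay 0.60 above that of all genes, and only 0.08 above it in the setting least favourable to it. Among genes of glycolysis, the pentose phosphate pathway and the TCA cycle 9 of 44 rose and 5 fell (20.5% and 11.4%), a balance that turned under all alternative scalings except the median over probes valid on both arrays. *Pkm*, the pyruvate kinase, was at 781 in GCDC and 5341 in control, and the hexokinase *Hk1* at 26.8 in GCDC and 225 in control, whereas the hexokinase *Hk2* was at 437 in GCDC and 217 in control and the lactate dehydrogenase subunit *Ldhb* at 579.6 in GCDC and 126 in control. The rise of *Hk2* was just past 2-fold and held in 1 of 6 alternative scalings.

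The genomic span of a gene and the mean level of its probe moved with its ratio. Signals of different probes are not on one scale, so the classes by level rank probes and not transcripts. Genes that rose had a median genomic span of 10.8 kb and genes that fell one of 36.3 kb, beside 18.7 kb for all compared genes. With genes cut into 5 equal classes by span and 5 by mean level, 44.6% of those in the shortest and highest class rose and 1.59% fell, whereas among the longest genes of middle level 5.21% rose and 18.7% fell. The respiratory chain had a median span of 6.77 kb and a median level of 1702 (mean of both arrays), the mitochondrial ribosomal proteins 7.75 kb and 447, and the proteasome 12.8 kb and 1324. The list of glutathione, thioredoxin and NRF2 targets had 11.9 kb and 261. These medians lie in the class next to the shortest by span and in the highest by level, where 36.1% of genes rose and 2.04% fell. The medians of the G2/M list (18.6 kb and 52.8) lie in the middle class of both, where 6.77% rose and 13.7% fell. The part of span and level in these results was not tested.

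**Figure D5:**
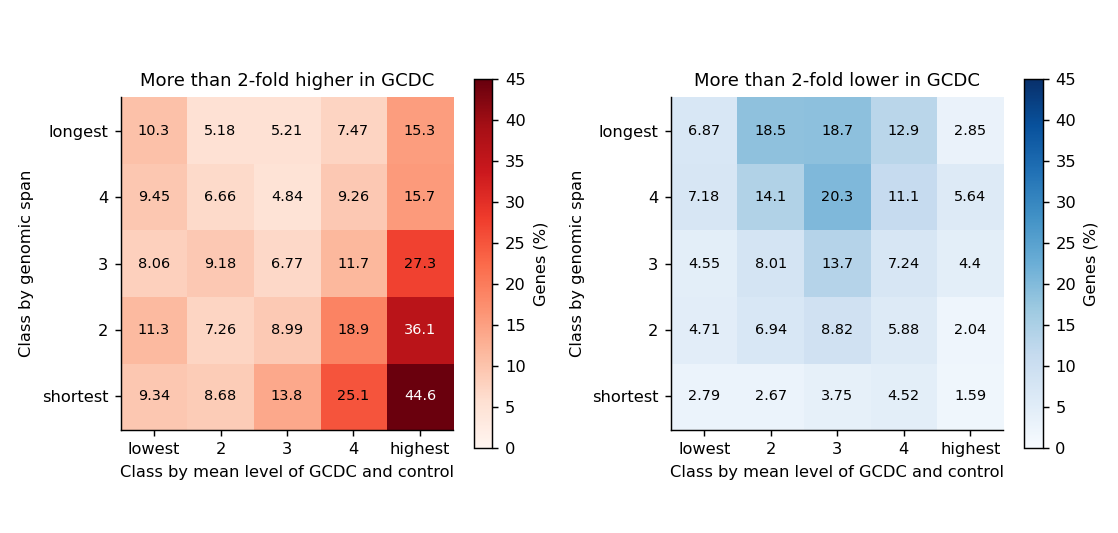
Percent of genes that rose (left) and fell (right) more than 2-fold in GCDC against control, in 5 classes by genomic span (vertical axis) and by the mean level of the 2 arrays (horizontal axis). The highest share of rises, 44.6%, is in the class of shortest span and highest level, and the highest share of falls, 20.3%, is in the class of middle level and next to longest span.

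Genes of epithelial adhesion fell more often than they rose. Of 44 compared cell junction genes 11 fell and 5 rose (25% and 11.4%, median log2 ratio −0.20), with 8 to 20 falls and 0 to 6 rises under the alternative scalings. *Ctnnd1* (p120 catenin), which holds cadherins at the membrane, was at 43.6 in GCDC-treated BECs and 313 in control BECs, and the tight junction protein *Cldn1* at 7.8 in GCDC and 28.1 in control. *Cdh2* (N-cadherin) went the other way at 28.1 in GCDC and 6.87 in control, and *Cdh1* (E-cadherin) was at 1695 in GCDC and 1245 in control. Among matrix genes and their receptors, 10 fell and 5 rose of 49 (20.4% and 10.2%). *Col4a1*, a basement membrane collagen, was at 14.7 in GCDC and 163 in control, and the hyaluronan receptor *Cd44* at 49.1 in GCDC and 259.9 in control, while fibronectin, *Fn1*, was at 652 in GCDC and 293 in control. The keratins of BECs, *Krt7* (log2 ratio 0.76), *Krt8* (0.53) and *Krt18* (0.54), stayed within 2-fold, and *Krt19* was at 27743 in GCDC and 13440 in control, a rise that was lost under all alternative scalings but 1 and whose log2 ratio was −0.08 after cyclic loess. Of 36 BCL2 family and apoptosis genes 0 rose and 6 fell (0% and 16.7%, beside 13.5% and 8.21% of all genes). Under the alternative scalings 0 rose and 2 to 16 fell. The 6 genes that fell lay on both sides of cell death. The anti-apoptotic genes among them were *Xiap*, a caspase inhibitor, at 3.9 in GCDC and 25.2 in control, and *Bcl2l1*, at 57.7 in GCDC and 222 in control. The other 4 promote cell death, namely the apoptosome protein *Apaf1* (log2 ratio −1.48), the gasdermin *Gsdme* (−1.74), the BH3-only protein *Bcl2l11* or BIM (−1.08) and the adaptor *Fadd* (−1.02). *Bcl2l11* and *Fadd* were just past 2-fold, and the GCDC level of *Gsdme*, 2.2, lay 3.69 SD above the blanks.

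Of 36 receptor tyrosine kinases 5 rose and 5 fell (13.9% each), near the 13.5% that rose among all genes and above the 8.21% that fell. *Egfr*, the receptor of the EGF in the medium, was at 530.2 in GCDC and 183 in control (2.9-fold), whereas *Kit*, the stem cell factor receptor, was at 4.6 in GCDC and 30.8 in control, and *Ret* at 14.8 in GCDC and 75.9 in control. The EGF receptor ligand *Hbegf* was at 673 in GCDC and 179 in control and a second ligand, *Tgfa*, at 3.4 in GCDC and 22.6 in control, so that ligands of the same receptor moved in opposite ways. Targets of Wnt and Notch had 5 rises and 6 falls among 44 (11.4% and 13.6%). *Sp5*, a direct Wnt target, was at 42 in GCDC, 164 in serum depletion and 5.08 in control, and the Notch ligand *Jag1*, mutated in a human bile duct paucity syndrome, was at 10.2 in GCDC and 39.4 in control. TGF-beta and YAP targets had 9 rises and 7 falls among 39, a balance that turned under all alternative scalings except the median over probes valid on both arrays. *Yap1* was at 16.3 in GCDC and 58.1 in control and the TGF-beta effector *Smad3* at 5.9 in GCDC and 31.4 in control, while *Ccn2*, a target of both pathways, was at 7738 in GCDC and 3456 in control.

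Secreted factors of senescent cells, the senescence-associated secretory phenotype (SASP), were measured as proteases, growth factors and IGF-binding proteins. Of these 13 of 46 rose and 8 fell (28.3% and 17.4%, median log2 ratio 0.23), a balance that turned with no scaling (5 rises and 11 falls) and was even with equal 75th percentiles (9 each). *Igfbp7*, an IGF-binding protein, was at 24003 in GCDC and 5757 in control (4.17-fold), and *Cst3*, the protease inhibitor cystatin C, at 3886 in GCDC and 826 in control (4.7-fold). The matrix metalloproteinase *Mmp7*, an epithelial marker of biliary injury, was at 752 in GCDC, 2757 in serum depletion and 191 in control. *Mmp14*, a membrane-bound metalloproteinase, was at 13.8 in GCDC and 132 in control. Among chemokines 5 of 25 rose and 2 fell (20% and 8%), and among interleukins and other cytokines 9 of 51 rose and 4 fell (17.6% and 7.84%), shares not far from the 13.5% and 8.21% of all genes. With no scaling falls outnumbered rises in both lists, and with equal 75th percentiles, quantile normalization and cyclic loess the interleukins and cytokines had as many falls as rises. *Ccl20*, which attracts Th17 cells, was at 323 in GCDC and 75.5 in control, and *Il1rn*, the antagonist of interleukin-1, was at 15.2 in GCDC and 79.9 in control. *Il6* was near the background at 1.5 in GCDC and 3.82 in control. The NF-kB pathway and its feedback genes had 4 falls and 2 rises among 27, with 2 to 13 falls and 0 to 2 rises under the alternative scalings. The feedback inhibitors split, with *Nfkbia* at 675 in GCDC and 265 in control and *Tnfaip3* at 111 in GCDC and 252 in control.

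Interferon-stimulated genes rose in part. Of 57 compared members 12 rose and 3 fell (21.1% and 5.26%) with a median log2 ratio of 0.24, the same as for all genes, and with no scaling falls outnumbered rises. *Ifit3*, an interferon-induced antiviral protein, was at 87.1 in GCDC-treated BECs, 306 in serum-depleted BECs and 7.21 in control BECs. *Ifi27* was at 951 in GCDC, 417 in serum depletion and 100.4 in control. The chemokine *Cxcl10*, a standard readout of interferon signalling, was at 3.6 in GCDC and 5.28 in control. MHC class I genes had 7 rises and 0 falls among 22 compared, with *B2m*, the shared light chain, at 3931 in GCDC and 912 in control. Under the alternative scalings 1 to 7 MHC class I genes rose and 0 to 2 fell. The interferon-stimulated response element (GAAA repeated with 2 bases between) was found in the promoters of 23 of 43 genes of the interferon list and of 3.78% of all genes with a sequence. Of these 23 genes 7 rose, 1 fell and 15 stayed within 2-fold. *Ifit3* is shown because it had the largest rise of the list and holds 2 matches, which start 156 and 122 bases before the start and read as the reverse complement on the strand printed (chr19:34583279-34583528, plus strand, GRCm38.p6).
*Ifit3*: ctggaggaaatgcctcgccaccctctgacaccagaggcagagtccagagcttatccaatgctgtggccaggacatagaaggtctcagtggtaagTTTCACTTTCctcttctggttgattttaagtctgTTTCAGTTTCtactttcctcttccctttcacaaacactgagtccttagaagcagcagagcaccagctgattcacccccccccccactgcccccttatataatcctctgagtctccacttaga

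Outside the stress lists, genes differed between GCDC and serum depletion in both directions. *Prap1*, a proline-rich acidic protein of epithelia, was at 11783 in GCDC, 820.5 in serum depletion and 5794 in control. *Nt5e*, the ectoenzyme CD73 that makes adenosine, was at 129.7 in GCDC, 15 in serum depletion and 179.6 in control. *Scel* (sciellin), of the cornified envelope, was at 118 in GCDC, 19.6 in serum depletion and 112 in control, with GCDC within 2-fold of control. The largest differences were those of genes lower in GCDC. *Reg1*, a secreted regenerating protein, was at 10 in GCDC, 756 in serum depletion and 3.51 in control, and the major urinary protein gene *Mup19*, one of a family of close copies, was at 5.3 in GCDC, 225 in serum depletion and 6.45 in control. The metalloproteinases *Mmp12* and *Mmp13* were low in GCDC (*Mmp12* 4.8 and *Mmp13* 3.7), higher in serum depletion (*Mmp12* 153 and *Mmp13* 84.3) and low in control (*Mmp12* 5.24 and *Mmp13* 3.1). Immediate early genes and feedback inhibitors of ERK signalling had 7 rises (16.7%) and 0 falls among 42 in GCDC over control, not far from the 13.5% of all genes that rose. With no scaling 1 rose and 11 fell, after cyclic loess 2 rose and 2 fell, and after background fitting with quantile normalization 0 did either. *Dusp6*, a phosphatase of ERK, was at 2982 in GCDC, 1033 in serum depletion and 1442 in control, and *Maff*, a small Maf factor, at 1442 in GCDC, 508 in serum depletion and 460.4 in control.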

How the data were processed

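RNA from GCDC-treated, serum-depleted and control BECs was hybridised by the authors to 3D-Gene 24k oligo arrays with 1 colour, 1 array per condition. The authors deposited a table of processed intensity, in which the mean of the blank spots had been subtracted, probes not above 2 SD of the blanks were left empty and each array was scaled to a median of 25. They also deposited the scanner output as raw intensity, which was used here for the other scalings. Recomputing the table from it gave the same valid probes, with log2 ratios within 0.14. No columns of the authors' own comparisons were used.

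Of 23473 gene probes 20690 had 1 symbol in the platform annotation and 2783 had none. Each gene was represented in lists by its probe of highest mean level. The ratio of GCDC to control was taken for probes filled on both arrays, and 2-fold was the threshold. No test was possible with 1 array each. Of 2209 members written in 52 gene lists 2079 were on the array. The members and lists were chosen with earlier results of these data known. Named genes were the 15 highest and 15 lowest ratios with a level of at least 25, 8 probes valid on each array alone, the 4 largest changes of each list, 6 differences from serum depletion in each direction and the cell type markers, and others were named as classical members or to spell out a count after their values were seen.

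Promoters (RefSeq, GRCm38.p6) were found for 13170 of the 16779 genes, and genomic spans are from the same build. The counting of changes was tested on simulated data. Python 3.11.15, numpy 2.4.6, pandas 2.3.3, matplotlib 3.10.9, R 4.3.3 and limma 3.58.1 were used. The study's RT-qPCR, tissue work and second array experiment are not analysed here.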

Additional observations from a re-analysis of the deposited data

Results flagged for a closer look

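*Prap1*, a proline-rich acidic protein of epithelia, moved in opposite directions in the treatments. Its level was 11783 in GCDC-treated BECs, 820.5 in serum-depleted BECs and 5794 in control BECs. The log2 ratio to control was 1.02 in GCDC and −2.82 in serum depletion, a difference of 3.84 that was not tested, since each condition had 1 array. The ratios share the control array. The rise in GCDC was just past 2-fold and was lost under equal 75th percentiles (0.84), no scaling (0.38), quantile normalization without or with background fitting (0.24 each) and cyclic loess (0.02), whereas the level in GCDC was 14.4-fold that in serum depletion.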

How the results depend on the processing

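No paired analysis was possible because each condition had 1 array. The scaling of the dimmer GCDC array decided how rises and falls balanced. Against 2596 rises, 1707 falls, 60.3% rises among changes and a median log2 ratio of 0.24, no scaling gave 607, 4384, 12.2% and −0.41. Equal 75th percentiles gave 1723 rises, 43.5% and 0.05, quantile normalization 1591, 42.9% and 0.09, and cyclic loess 1330, 36.6% and 0.01. Quantile normalization after normexp background fitting (offset 50) gave 414 rises, 590 falls, 41.2% and 0.01. With a level of at least 25 there were 1128 falls. A threshold of 1.5-fold gave 5897 rises and 3111 falls, 4-fold 255 and 418 (37.9% rises), and 8-fold 34 and 75 (31.2%). Levels recomputed from the scanner output, no validity filter, a limit of 5 SD, the median over probes valid on both arrays and distinct symbols stayed within 1.5 times for both counts.

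Relative to all genes, the median of cytosolic ribosomal proteins was 0.41, but −0.02 after quantile normalization and −0.11 after cyclic loess. That of cholangiocyte markers was 0.42, but −0.06 and −0.16 under the same settings, and that of hepatocyte markers was −0.35, but 0.16 with a level of at least 25. *Krt19* had a log2 ratio of 1.05 and of −0.08 after cyclic loess. Of 207 named genes past 2-fold, 175 stayed so in the same direction with no scaling, the median over probes valid on both arrays, equal 75th percentiles, quantile normalization and cyclic loess. Background fitting with an offset of 50, which draws low levels together, brought 94 of the 207 within 2-fold, and 112 stayed past it in the same direction under all 6 scalings. The counts of integrated stress response genes against serum depletion under other scalings were added after seeing the data. The cause of these differences was not tested beyond the scaling itself. Levels near the background are the least certain, as the median of the first set of negative control spots passed the limit of 2 SD. Having 1 array per condition limits the precision of every ratio.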
